A study of Mus musculus with 8 samples.

Results

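A set of 6 secreted or membrane-bound matrix metalloproteinases, or MMPs (*Mmp2*, *Mmp3*, *Mmp9*, *Mmp12*, *Mmp14*, *Mmp19*) and the 4 tissue inhibitors of metalloproteinases, or TIMPs (*Timp1*, *Timp2*, *Timp3*, *Timp4*) were followed in mouse heart RNA after myocardial infarction (MI). They were chosen by symbol, with earlier results of these data known, and all 10 were found among the 16994 genes of the count table. RNA sequencing compared WT mice with TKO mice, which lack *Tigar* (a fructose bisphosphatase that restrains glycolysis) in the whole body. Male mice were used throughout. In the mice that gave the infarct, border and remote zones, the left anterior descending artery was ligated at 16 weeks of age. Heart function was followed to 4 weeks after ligation, and the sources used here do not state when the tissue for RNA was taken. Further, for the left ventricle libraries the sources used here do not say whether the hearts were sham operated. Each genotype and region had 1 library, 8 in all, and each infarct zone library was made from RNA pooled from 3 mice. The knockout allele was carried in every cell type, so nothing ties a difference between genotypes to any of them. No group had a replicate.

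Matrix metalloproteinases are zinc proteases that cleave collagens, gelatins, elastin and other matrix proteins. Most are secreted as inactive proenzymes, and a few, such as *Mmp14*, are anchored in the cell membrane. The TIMPs bind the active site of these enzymes, and TIMP2 also takes part with MMP14 in activating pro-MMP2 at the cell surface. In the infarcted heart the balance of proteases and inhibitors is known for its part in clearing dead tissue, forming the scar and dilating the ventricle. Transcript levels do not show how much of an enzyme is active.

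On GRCm38, *Mmp12* (chr9:7344381-7369499) and *Mmp3* (chr9:7445822-7455975) lie on the plus strand within a run of metalloproteinase genes that also holds *Mmp13*, *Mmp1b*, *Mmp10*, *Mmp8*, *Mmp27*, *Mmp20* and *Mmp7*. *Mmp2* (chr8:92827291-92853420), *Mmp9* (chr2:164940780-164955850), *Mmp14* (chr14:54431612-54445364) and *Mmp19* (chr10:128790910-128800824) lie elsewhere. The inhibitors, except *Timp2*, lie inside synapsin genes on the opposite strand. They are *Timp1* (chrX:20870166-20874735, inside *Syn1*), *Timp3* (chr10:86300372-86349506, inside *Syn3*) and *Timp4* (chr6:115241892-115252205, inside *Syn2*). *Timp2* is on chromosome 11 (chr11:118301069-118355740, minus strand). Exons of *Timp3*, *Timp4*, *Mmp12* and *Mmp19* overlap exons of *Syn3*, *Syn2*, *Mmp1b* and *Tmem198b*, and whether the quantification used the strand of the reads is not given in the sources used here, so reads of these overlaps could be split wrongly. *Syn1*, *Syn2* and *Syn3* had between 3 and 93 counts in a library, far below the counts of the inhibitors inside *Syn2* and *Syn3*. *Tmem198b*, however, had 169 to 594 counts, including 179 in the TKO left ventricle, where *Mmp19* had 18.

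The sequences before the start of *Mmp3*, *Mmp12* and *Timp1* are shown because these 3 genes were among those that differed most between zones and genotypes, and because AP-1, the transcription factor family of *Fos* and *Jun*, is known to act on promoters of this gene family. Of the 10 genes, 7 had an entry in the RefSeq promoter table (GRCm38.p6), and *Mmp2*, *Mmp9* and *Mmp19* had none. The window ran from 250 bases before to 50 bases after the start, and only the bases before the start are printed. Capitals mark the AP-1 motif TGANTCA and the TATA motif TATAAA, both searched on both strands. For *Mmp12*, with 2 starts in the table, the start that held a motif is shown, at chr9:7347124-7347373 on the plus strand. The stretches for *Mmp3* (chr9:7445572-7445821) and *Timp1* (chrX:20869916-20870165) are also on the plus strand.
Mmp3: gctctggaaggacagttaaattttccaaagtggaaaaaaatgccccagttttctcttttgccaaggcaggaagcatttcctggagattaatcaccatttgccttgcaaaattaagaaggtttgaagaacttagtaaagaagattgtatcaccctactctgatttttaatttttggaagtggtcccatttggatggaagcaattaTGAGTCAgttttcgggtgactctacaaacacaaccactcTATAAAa
Mmp12: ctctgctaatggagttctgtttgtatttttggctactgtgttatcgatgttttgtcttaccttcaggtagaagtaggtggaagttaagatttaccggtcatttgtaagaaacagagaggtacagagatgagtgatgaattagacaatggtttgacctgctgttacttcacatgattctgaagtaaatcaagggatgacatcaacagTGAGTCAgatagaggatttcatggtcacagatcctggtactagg
Timp1: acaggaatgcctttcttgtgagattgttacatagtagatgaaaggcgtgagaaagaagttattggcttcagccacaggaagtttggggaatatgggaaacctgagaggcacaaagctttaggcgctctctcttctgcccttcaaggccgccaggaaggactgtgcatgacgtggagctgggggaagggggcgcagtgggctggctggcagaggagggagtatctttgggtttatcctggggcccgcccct

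The AP-1 motif began 46 bases before the start in *Mmp3* and 44 bases before it in *Mmp12*. None was found in *Mmp14*, *Timp2*, *Timp3* or *Timp4*, or at the other start of *Mmp12*. The AP-1 motif was in 7.81% of the 32851 promoters of the table, in the same window. The TATA motif, held by 13.6% of the promoters, began 7 bases before the start of *Mmp3* and 5 bases after that of *Mmp12*. *Timp1* held no TGANTCA in the window but had the variant TGAGTAA from base 27 after the start (chrX:20870192-20870198, plus strand, ggtgggtggaTGAGTAAtgcgtccagg, with the variant in capitals), which 2.68% of promoters held. In *Mmp14*, *Timp1*, *Timp2* and *Timp3* the window held the GC box GGGCGG, present in 35.7% of promoters, and in *Mmp3*, *Mmp12* and *Timp4* it did not. Such matches describe the letters of the window and do not show that a factor was bound.

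Total estimated counts lay between 27429240 and 33799249 a library. *Tigar* had 1066 to 2215 counts in the WT libraries and 51 to 87 in the TKO libraries. Levels are given as CPM, a count scaled to the size of its library, with library sizes set by edgeR's TMM method, which raised the effective size of the WT infarct library by a factor of 1.54 and of the TKO infarct library by 1.26, against 0.866 to 0.956 in the other 6. The sum over 10 cardiomyocyte markers, 41596 CPM in the WT and 41456 CPM in the TKO left ventricle, was 12128 CPM in the WT and 20958 CPM in the TKO infarct zone, so the WT infarct library held a smaller share of cardiomyocyte transcripts than the TKO infarct library. In bulk tissue, fewer cells of a type and less RNA per cell cannot be told apart. Intervals given with a ratio of 2 libraries are exact 95% binomial intervals and cover counting error only.

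In the infarct zone, every metalloproteinase followed here and 3 of the 4 inhibitors stood far above the left ventricle in both genotypes, and *Timp4* did not. *Mmp2*, the constitutive gelatinase of fibroblasts, was at 49.7, 84.8, 181 and 453 CPM in the left ventricle, remote, border and infarct zone of WT hearts, in that order, and at 56.3, 61.7, 96.7 and 397 CPM in TKO hearts. *Mmp14*, the membrane-bound collagenase that activates pro-MMP2, was at 12.2, 15.9, 26.4 and 64.0 CPM in WT and at 18.6, 13.7, 16.6 and 44.5 CPM in TKO. For both genes the infarct zone held the highest value of each genotype, and the left ventricle the lowest in WT.

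*Mmp3* (stromelysin 1, which cleaves proteoglycans and activates other metalloproteinases) was at 4.56, 7.79, 31.9 and 63.1 CPM in WT and at 3.86, 2.59, 7.01 and 27.6 CPM in TKO, in the order left ventricle, remote, border and infarct zone. *Mmp9*, the gelatinase that neutrophils store, was low throughout, at 2.12, 2.86, 7.98 and 18.0 CPM in WT and 1.58, 0.73, 3.07 and 9.32 CPM in TKO. In both genes the TKO border zone was close to the WT remote zone, at 7.01 against 7.79 CPM for *Mmp3* and 3.07 against 2.86 CPM for *Mmp9*. This was not particular to them, since *Mmp14* had 16.6 against 15.9 CPM, whereas *Mmp12* had 4.85 against 17.9 CPM. *Mmp12*, the macrophage elastase, was at 3.14, 17.9, 7.43 and 37.3 CPM in WT and 1.97, 1.79, 4.85 and 24.0 CPM in TKO. It was the only metalloproteinase of the 6 that was higher in the WT remote zone than in the WT border zone. *Mmp19*, which cleaves basement membrane proteins, was at 2.59, 4.17, 5.39 and 18.6 CPM in WT and 0.70, 2.59, 2.93 and 13.1 CPM in TKO. The 0.70 CPM rested on 18 counts.

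*Timp1*, the inducible inhibitor, had the widest range of the 10 genes, with 1.75, 7.66, 16.1 and 46.9 CPM in WT and 1.58, 2.52, 6.27 and 24.8 CPM in TKO. *Timp2* was at 98.5, 169, 213 and 585 CPM in WT and 95.8, 123, 134 and 452 CPM in TKO. Both genes were ordered infarct, border, remote and left ventricle in each genotype. *Timp3*, the inhibitor that binds to the matrix, was at 295, 328, 361 and 823 CPM in WT and 135, 308, 314 and 615 CPM in TKO. *Timp4*, the inhibitor known for its high level in heart muscle, was at 63.9, 49.8, 43.4 and 12.6 CPM in WT, falling from left ventricle to infarct, and at 22.7, 43.5, 40.7 and 20.5 CPM in TKO, where the left ventricle and the infarct zone were the low values.

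**Figure D1:**
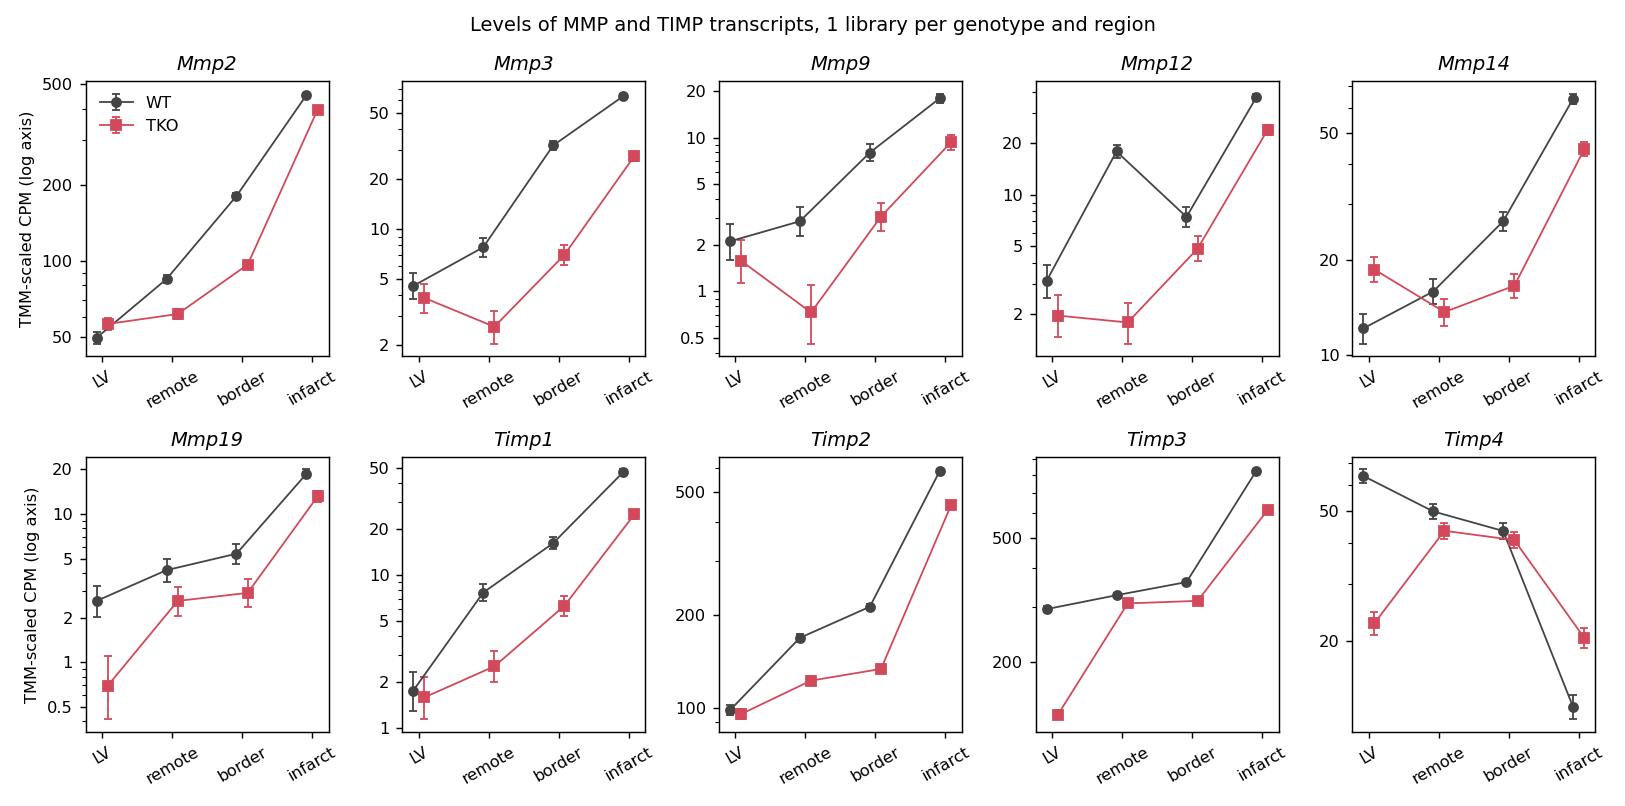
Level of each of the 10 genes as TMM-scaled CPM on a log axis against region, with WT as grey circles and TKO as red squares; each point is 1 library, its bar is the exact 95% Poisson interval of the count, and the lines only join libraries of a genotype. In 9 of the 10 genes the infarct zone holds the highest value of both genotypes, whereas *Timp4* is lowest in the infarct zone (in TKO only under TMM, since its infarct value exceeds the left ventricle with scaling by total counts), and *Mmp12* has a high value in the WT remote zone (17.9 CPM).

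Per transcript length, which allows genes to be compared, *Timp3* had the highest CPM per kilobase of the 10 genes in all 8 libraries, and *Timp2* and *Mmp2* followed in either order. *Mmp2* made up between 61.1% and 73.7% of the summed CPM per kilobase of the 6 metalloproteinases. *Timp4* made up 11.3% of the summed CPM per kilobase of the 4 inhibitors in the WT left ventricle and 0.592% in the WT infarct zone. With the union of exons as length, a choice made after seeing the data, *Timp3* led in 3 of the 8 libraries only, its exon union being 8144 bases against 4722 for its main transcript. The order of these 3 genes therefore depended on the length used.

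The sum of the 6 metalloproteinases divided by the sum of the 4 inhibitors, both as CPM per kilobase, does not depend on library scaling. For the left ventricle, remote, border and infarct zone it was 0.25, 0.340, 0.580 and 0.589 in WT hearts. In TKO hearts it was 0.478, 0.259, 0.383 and 0.615 in the same order. In WT the left ventricle had the lowest ratio, whereas in TKO the remote zone had. The TKO left ventricle stood apart through its inhibitors, with a sum of 60.4 CPM per kilobase against 103 in the WT left ventricle, while the metalloproteinase sums were 28.9 and 25.6. The infarct zone ratios of the genotypes, 0.589 and 0.615, were close, although both sums were lower in TKO.

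**Figure D2:**
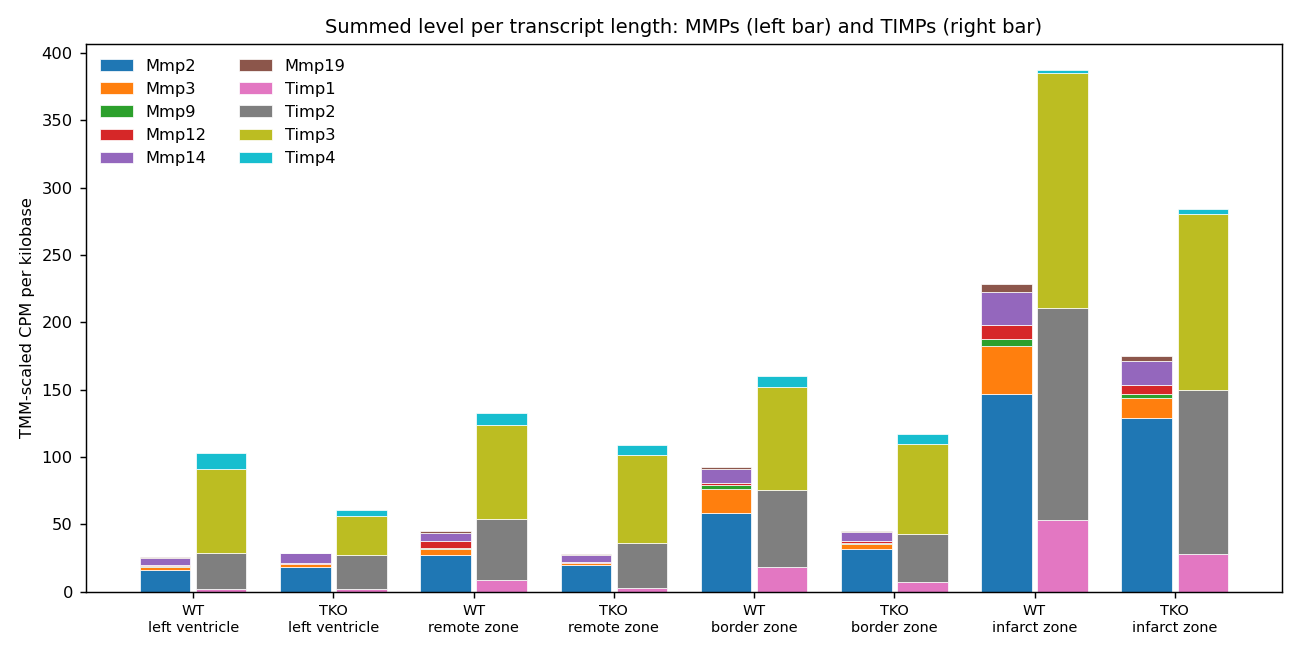
Summed TMM-scaled CPM per kilobase of transcript (linear axis from 0) of the 6 metalloproteinases (left bar of each pair) and the 4 inhibitors (right bar) in each of the 8 libraries, split by gene. The inhibitor bar is the taller in every library, *Mmp2* fills most of the metalloproteinase bar, and *Timp3* is the largest inhibitor segment.

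Ratios of counts within a library gave single pairs of protease and inhibitor. *Mmp2* over *Timp2*, the pair that meets at the cell surface, was 0.504, 0.502, 0.849 and 0.774 in the left ventricle, remote, border and infarct zone of WT, and 0.588, 0.502, 0.722 and 0.877 in TKO. This pair was thus higher in the infarct and border zones than in the other regions in both genotypes. *Mmp9* over *Timp1* was instead highest in the left ventricle of each genotype, at 1.21, 0.373, 0.496 and 0.384 in WT and 1.0, 0.289, 0.489 and 0.375 in TKO. Relative to the left ventricle, *Timp1* thus gained on *Mmp9* in every zone of both genotypes. In the TKO remote zone *Mmp9* itself was lower, at 0.462 times the left ventricle level. The left ventricle ratios rested on 58 *Mmp9* and 48 *Timp1* counts in WT, and on 41 of each in TKO.

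Regions were compared across genotypes in a fit of region and genotype over the 8 libraries, by the quasi-likelihood test of edgeR, with p-values adjusted by Benjamini-Hochberg over 12999 genes. Its spread is the departure of the libraries from additive effects, so a call bears on these 2 genotypes and not on mice. In the infarct zone against the left ventricle 9 of the 10 genes rose, where 28.2% of all genes tested were called higher, and *Timp4* fell, where 28.6% were called lower. *Timp1* rose by 4.38 ± 0.32 on the log2 scale (SE, adjusted p = 0.00036), *Mmp12* by 3.64 ± 0.68 (adjusted p = 0.0048), *Mmp19* by 3.40 ± 0.33 (adjusted p = 0.00077) and *Mmp3* by 3.31 ± 0.41 (adjusted p = 0.0015). The log2 differences of *Mmp2*, *Mmp9* and *Timp2* were 2.98, 2.82 and 2.40, and those of *Timp3* and *Mmp14* were 1.79 and 1.78. The median log2 difference was 2.90 over the 10 genes and 0.02 over all genes tested. Fibroblast markers (10 of 10 called higher) and macrophage markers (10 of 10) rose in the same comparison, with sums of 2007 CPM in the left ventricle and 9091 in the infarct zone of WT for fibroblasts, and 429 and 1764 CPM for macrophages. Markers called higher there also included 4 of 4 tested for neutrophils, 5 of 6 for mesothelial cells and 4 of 5 for lymphocytes. Of 8 smooth muscle and pericyte markers, 5 were called higher and 2 lower. The part of these cell types in the rise of the metalloproteinases was not tested.

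The fall of *Timp4* was -1.30 ± 0.46 on the log2 scale (edgeR, adjusted p = 0.049), and it rested on the WT libraries. In WT, the infarct zone over left ventricle ratio of *Timp4* was 0.197 (0.179 to 0.217), and in TKO it was 0.902 (0.808 to 1.01). The call was lost without the WT infarct library (log2 difference -0.67, adjusted p = 0.31), without the WT left ventricle library (-0.42, adjusted p = 0.26) and with scaling by total counts (-0.63, adjusted p = 0.16). Under total counts, which moved the median log2 infarct zone difference of all genes up by 0.83 in WT and 0.54 in TKO, the TKO ratio was 1.31, above 1.

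In the border zone against the left ventricle only *Timp1* rose, by 2.63 ± 0.32 on the log2 scale (edgeR, adjusted p = 0.033), where 0.669% of all genes tested were called higher. All 10 log2 differences were above 0, from 0.01 for *Timp4* to 2.63, and 7 of the 10 had an unadjusted p under 0.05 (17.9% of all genes tested). The call for *Timp1* was lost without the WT border library (2.41, adjusted p = 0.25) or the TKO border library (2.80, adjusted p = 0.0985). In the remote zone against the left ventricle edgeR called 0 of the 10 genes, as it called 0% of all genes tested. At an unadjusted p under 0.05 there were 4 (10.6% of all genes tested). DESeq2 called *Timp1* alone of the 10, and 162 genes in all. The infarct zone was higher than the border zone for 9 of the 10 genes (21.6% of all genes tested), from 1.07 ± 0.26 for *Timp3* to 2.34 ± 0.61 for *Mmp12* on the log2 scale. *Timp4* had a difference of -1.32 ± 0.45 (edgeR, adjusted p = 0.055). Without the TKO border library 0 of the 10 genes were called in this comparison, and without the WT infarct or the WT border library 4 were, while 6 were without the TKO infarct library.

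**Figure D3:**
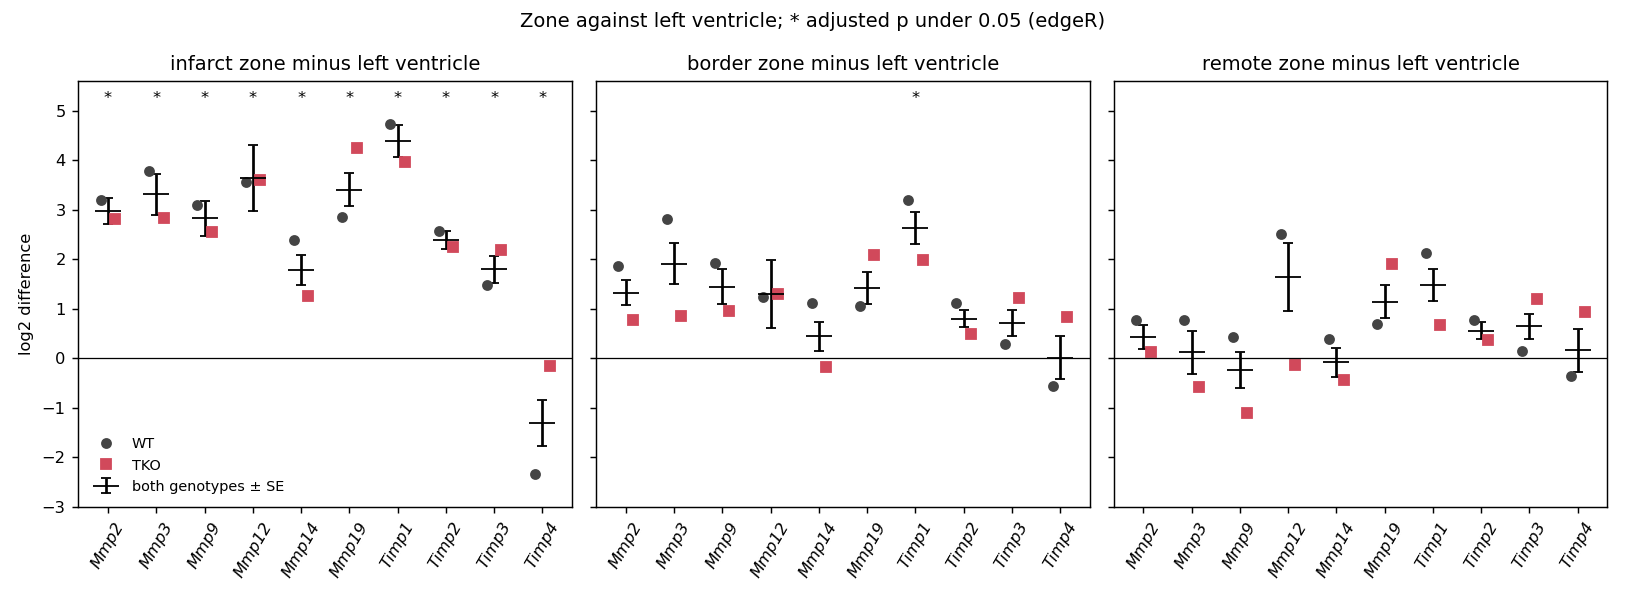
Log2 difference of each zone from the left ventricle for the 10 genes; black bars are the fitted difference over both genotypes ± SE, grey circles the WT and red squares the TKO ratio of 2 libraries, and a star marks an adjusted p under 0.05 (edgeR). All 10 genes carry a star in the infarct zone, *Timp1* alone does in the border zone, and none does in the remote zone.

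Each zone was also compared with the left ventricle library of its own genotype, and the zone ratios of a genotype share that library. In WT, a rise of at least 2-fold was seen for 9 of the 10 genes in the infarct zone (18.8% of all genes tested) and for 8 in the border zone (5.45%), while *Mmp12* and *Timp1* showed it in the remote zone (3.42%). *Timp4* was at least 2-fold lower in the WT infarct zone (14.8%). In TKO, a rise of at least 2-fold was seen for 9 genes in the infarct zone (16.2%), for 4 in the border zone (4.42%), which were *Mmp12*, *Mmp19*, *Timp1* and *Timp3*, and for 2 in the remote zone (3.11%), which were *Mmp19* and *Timp3*. The reference of these ratios, the TKO left ventricle, held the lowest level of *Mmp19* and of *Timp3* among the 8 libraries. *Mmp9* was at least 2-fold lower in the TKO remote zone, where 1.53% of all genes tested were, with 22 counts. An order of infarct over border over remote over left ventricle was seen for 8 of the 10 genes in WT (18.9% of all genes tested) and for 5 in TKO (14.6%), those being *Mmp2*, *Mmp19*, *Timp1*, *Timp2* and *Timp3*.

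The genotypes were compared within each region. In the border and remote zones all 10 genes were lower in TKO than in WT, where 50.3% and 52% of all genes tested were lower by any amount. In the infarct zone 9 of the 10 were lower (49.2%), and in the left ventricle 8 were (48.6%). For the border, remote and infarct zone and the left ventricle, the median ratios of TKO to WT over the 10 genes were 0.586, 0.674, 0.700 and 0.797, against 0.992 to 1.01 over all genes tested. *Mmp3*, *Mmp9*, *Mmp12*, *Mmp19*, *Timp1*, *Timp2* and *Timp3* were lower in TKO in all 4 regions, as were 13.5% of all genes tested, and with *Mmp2* and *Mmp14* there were 9 that were lower in the 3 zones (26.3%).

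*Mmp3*, *Mmp9* and *Timp1* were at least 2-fold lower in TKO in both the border and the remote zone, as were 1.02% of all genes tested. In the border zone, where 3.26% of all genes tested were at least 2-fold lower, *Mmp3* had 984 counts in WT and 208 in TKO, a ratio of 0.220 (0.188 to 0.255). *Timp1* had a ratio of 0.390 (0.327 to 0.462) and *Mmp9* of 0.384 (0.299 to 0.491) there. In the remote zone the ratios of *Mmp3*, *Timp1* and *Mmp9* were 0.333 (0.254 to 0.431), 0.330 (0.251 to 0.429) and 0.256 (0.152 to 0.412). A protease that activates others, a gelatinase and their inducible inhibitor were thus lower together in these libraries.

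*Mmp12* had the lowest TKO over WT ratio of the 10 genes in any region. In the remote zone it had 546 counts in WT and 54 in TKO, a ratio of 0.10 (0.0741 to 0.132), where 2.39% of all genes tested were at least 2-fold lower. In the border zone its ratio was 0.653 (0.527 to 0.808). The WT remote zone was 5.72 times the WT left ventricle (4.55 to 7.26). The TKO remote zone (1.79 CPM) was near the TKO left ventricle (1.97 CPM), with a ratio of 0.911 (0.610 to 1.36). It was also the lowest of the 8 libraries, below the TKO border zone (4.85 CPM). Which remote library was unusual for its group was not tested, and each group had 1 library.

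In the infarct zone *Mmp3* alone was at least 2-fold lower in TKO (1.43% of all genes tested), at 0.437 (0.406 to 0.470), followed by *Mmp9* at 0.518 (0.454 to 0.590) and *Timp1* at 0.530 (0.489 to 0.574). For *Mmp2* and *Timp2* the genotypes were less far apart, at 0.877 (0.858 to 0.896) and 0.774 (0.758 to 0.789). *Timp4* was higher in TKO, at 1.63 (1.45 to 1.82), and the cardiomyocyte marker sum was 1.73 times as high in the same libraries, whose part in this was not tested. With scaling by total counts, *Mmp9* and *Timp1* were also at least 2-fold lower in the infarct zone, the latter at 0.432. *Mmp2*, *Timp2* and *Timp4* were then at 0.715, 0.631 and 1.33, outside the intervals given above.

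In the left ventricle the pattern differed. *Mmp19* (71 counts in WT, 18 in TKO), *Timp3* (8097 and 3499) and *Timp4* (1752 and 588) were at least 2-fold lower in TKO, where 3.62% of all genes tested were, with ratios of 0.268 (0.150 to 0.455), 0.457 (0.439 to 0.476) and 0.355 (0.323 to 0.390). *Timp3* and *Timp4* came close to WT in the TKO border zone (0.870 and 0.938) and remote zone (0.941 and 0.873). *Mmp14* was higher in TKO in the left ventricle, at 1.53 (1.33 to 1.77), and so was *Mmp2*, at 1.13 (1.05 to 1.22). The intervals of *Mmp3*, *Mmp9*, *Timp1* and *Timp2* held 1 there, so these ratios lay within counting error. An interval that leaves out 1 does not cover the spread between mice. The left ventricle libraries also differed in the summed level of 5 adipocyte markers, at 72.3 CPM in WT and 1.12 CPM in TKO with *Plin1* and *Lep* at 0 in the latter, and of 8 lymphocyte markers, at 10.3 and 2.24 CPM. The part of these cells in the differences of *Timp3*, *Timp4* and *Mmp19* was not tested.

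**Figure D4:**
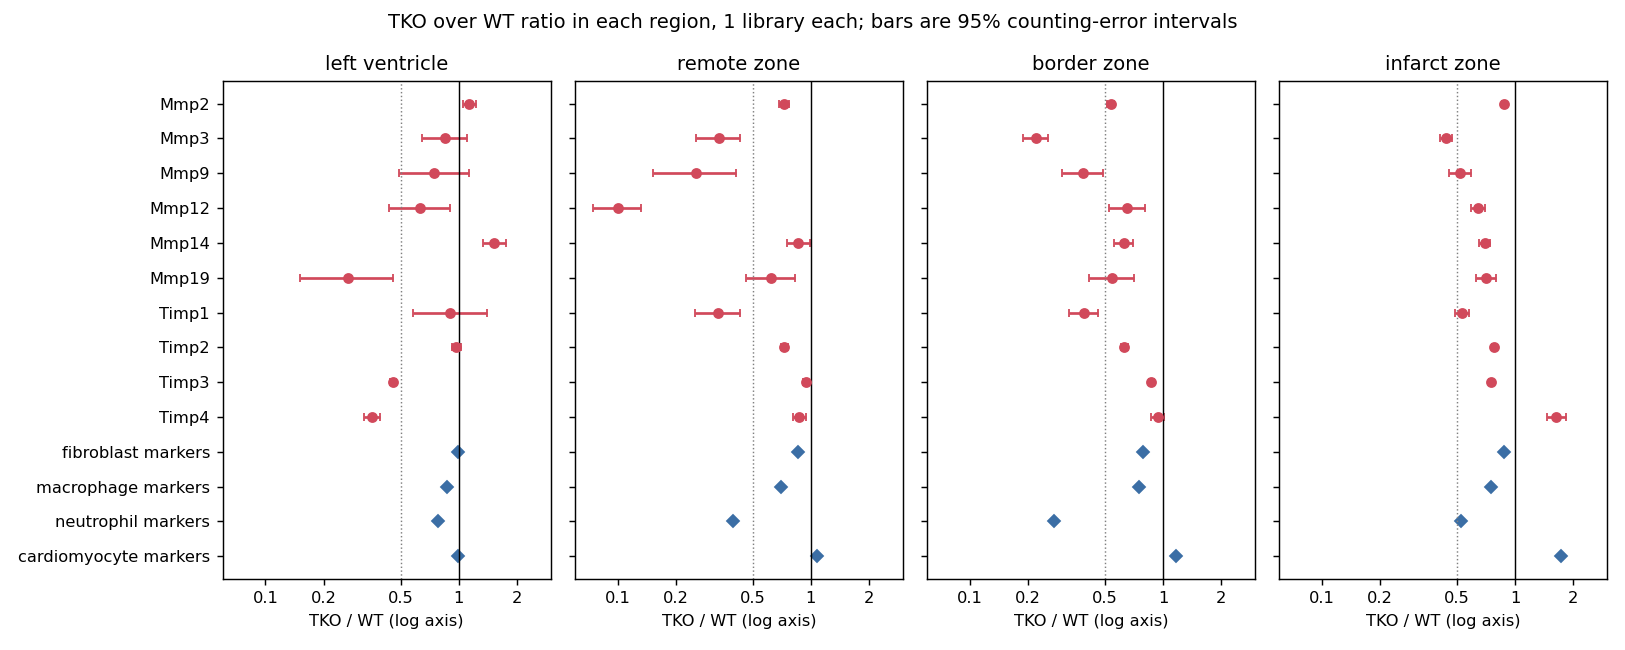
TKO over WT ratio (log axis) of the 10 genes in each region as red points with exact 95% binomial intervals from counting error, 1 library per genotype, with the ratio of summed marker levels of 4 cell types as blue diamonds; the solid line is 1 and the dotted line 0.5. All 10 points lie below 1 in the border and remote zones, *Mmp12* is at 0.10 in the remote zone, and *Timp4* lies above 1 in the infarct zone.

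Across the 4 regions edgeR's test called 0 of the 10 genes for genotype, where 0.0615% of all genes tested were called lower and 0.0769% higher, although the fitted difference was below 0 for all 10. The sources used here do not say whether zones were cut from the same hearts, and regions that share animals are not independent units. At an unadjusted p under 0.05 there were 7 (16.2% of all genes tested). DESeq2 called 4 of the 10, namely *Mmp3*, *Mmp9*, *Mmp19* and *Timp1*, and 342 genes in all. The log2 difference, TKO minus WT, was -1.36 ± 0.28 for *Mmp3* (SE, adjusted p = 0.17), -1.16 ± 0.24 for *Mmp9* (adjusted p = 0.17) and -1.09 ± 0.20 for *Timp1* (adjusted p = 0.16). For *Mmp12* it was -1.24 ± 0.46 (adjusted p = 0.28) and for *Mmp19* -0.89 ± 0.22 (adjusted p = 0.19). The other 5 genes lay between -0.46 and -0.22. Without the left ventricle libraries, *Mmp3* (adjusted p = 0.047) and *Timp1* (adjusted p = 0.044) were called by edgeR, among 80 genes called in all.

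Marker levels of several cell types were lower in the same TKO libraries. The summed fibroblast markers had TKO over WT ratios of 0.987, 0.857, 0.784 and 0.874 in left ventricle, remote, border and infarct zone, and the median ratios of the 10 markers were 1.08, 0.759, 0.653 and 0.826, with 4, 10, 9 and 10 markers lower in TKO. The summed macrophage markers had ratios of 0.867, 0.701, 0.753 and 0.747 in the same order, and the summed markers of neutrophils, 6 of 8 of which were in the table, had 0.784, 0.396, 0.271 and 0.527. Endothelial and smooth muscle marker sums had ratios between 0.920 and 1.16, although 7 of the 8 smooth muscle and pericyte markers were lower in the TKO left ventricle, with a median ratio of 0.786. Other sums differed more, with ratios between 0.463 and 0.838 for mesothelial and between 0.217 and 0.640 for lymphocyte markers. In the border zone, however, only 2 of the 6 mesothelial markers were lower in TKO, with a median ratio of 1.34. Neutrophil sums were small, at 35.0 CPM in the WT border zone and 9.51 CPM in the TKO border zone. Their part in the genotype differences was not tested. Per 1000 fibroblast marker counts, *Mmp3* had 9.65 counts in the WT and 2.70 in the TKO border zone, and *Timp1* had 4.86 and 2.42. *Mmp2* had 54.6 and 37.3 there, but 49.8 and 49.9 in the infarct zone. The divisor was the marker sum, whose border zone ratio (0.784) was nearer to 1 than the median marker ratio (0.653). Per 1000 macrophage marker counts, *Mmp12* had 29.1 counts in the WT remote zone and 4.14 in the TKO remote zone, against 21.1 and 18.2 in the infarct zone.

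Other metalloproteinases were read from a list of 17, of which 12 were in the table and 7 passed the filter on low counts. In the infarct zone against the left ventricle 5 of these 7 rose and 1 fell, where 28.2% of all genes tested were called higher and 28.6% lower. *Mmp23* rose most, by 2.84 ± 0.26 on the log2 scale (edgeR, adjusted p = 0.00069), and *Mmp28* by 1.42 ± 0.28 (adjusted p = 0.0062), with *Mmp11*, *Mmp16* and *Mmp17* between 0.91 and 1.14. *Mmp15*, a membrane-bound relative of *Mmp14*, had a log2 difference of -1.56 ± 0.16 (adjusted p = 0.00084). The TKO over WT ratios of *Mmp15* were above 1 in each region, at 1.52 (left ventricle), 1.24 (remote), 1.5 (border) and 1.89 (infarct), and its adjusted p for genotype was 0.155 (edgeR). The collagenase *Mmp13* had 30 to 130 counts and was not called in any comparison.

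Genes that activate or clear metalloproteinases (12 listed, 11 tested) included 8 that rose and 2 that fell in the infarct zone, and for these and the following lists the shares over all genes tested were again 28.2% higher and 28.6% lower. *Ctsk* (cathepsin K, a collagenolytic cysteine protease) rose by 3.52 ± 0.47 on the log2 scale, and *Lrp1*, the receptor that takes up protease and inhibitor complexes, by 2.40 ± 0.13 (edgeR, adjusted p = 0.0018 and 0.00023). *Bsg* (basigin, an inducer of metalloproteinases) and *Furin*, which cleaves pro-MMP14, fell by 1.40 and 0.41, but with scaling by total counts the infarct zone over left ventricle ratio of *Furin* was 1.23 in WT and 1.19 in TKO, above 1. Of 8 tested inhibitors of other kinds 6 rose, with *Reck*, a membrane-anchored inhibitor of metalloproteinases, at 2.75 ± 0.12 (adjusted p = 0.00018). Of 8 ADAM proteases tested 5 rose, led by *Adam12* at 2.87 ± 0.31, and of 12 ADAMTS proteases tested 7 rose and *Adamts7* fell (under total counts its WT ratio was 1.01, above 1, and its TKO ratio 0.920). *Adamts2*, the procollagen N-proteinase, rose by 3.38 ± 0.16 and was, with *Adamts10*, called in the border zone too, where 0.669% of all genes tested were called higher (log2 differences of 1.52 and 0.95, adjusted p = 0.030 and 0.033). Of 16 matrix substrates 11 rose, and *Col1a1* and *Col1a2*, which are on the fibroblast marker list too, were also called in the border zone. For genotype edgeR called 0 genes of these lists.

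Genes known to induce metalloproteinases were measured as well, and 9 of 14 tested rose in the infarct zone (28.2% of all genes tested) and 1 fell (28.6%). The AP-1 subunit *Fos* rose by 2.31 ± 0.34 and *Jun* by 0.49 ± 0.10 on the log2 scale (edgeR, adjusted p = 0.0022 and 0.0071). *Tgfb3* rose by 2.89 ± 0.19 (adjusted p = 0.00031), while *Tgfb1* differed by 0.49 ± 0.15 (adjusted p = 0.031). The cytokine *Il1b* rose by 1.25 ± 0.38 (adjusted p = 0.031), whereas *Il1a* fell by 1.29 ± 0.35 (adjusted p = 0.019).

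For each of the 10 genes, the genes with the most similar levels over the 8 libraries were found by the root mean square difference of log2 CPM after centring each gene. *Mmp3* and *Mmp9* were each the nearest gene of the other among all genes tested, at 0.304. Nearest to *Mmp12* were *Lgals3* (0.469), *Itgax* (0.478) and *Spp1* (0.501), genes known from macrophages, and *Mmp12* had the largest nearest distance of the 10. *Timp1* was most like *Postn* (0.234), *Mmp2* most like *Serpinf1* (0.103) and *Tgfb3* (0.125), and *Timp2* most like *Olfml3* (0.0791). *Mmp14* lay nearest to *Rab32* (0.127) and *Emilin1* (0.137), and *Mmp19* to *C4b* (0.179). *Timp3* lay nearest to *Glb1l* (0.0731), and *Timp4* to *Shld1* (0.195). All of these points share the same 8 libraries and scaling.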

How the data were processed

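The authors trimmed reads with Trim Galore 0.6.5, quantified transcripts with kallisto 0.46 against mm10 and summarised them to genes with tximport, and the deposited table holds estimated counts per gene without normalization for 8 libraries. The submitters' processing notes also name edgeR 3.34.1. The members and gene lists were chosen with earlier results of these data known. Libraries were grouped by the genotype and tissue labels.

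Counts were used as whole numbers, and 12999 genes passed a minimum mean of 1 CPM, all 10 members among them. TMM scaling and the quasi-likelihood test were run in edgeR 4.0.16 (R 4.3.3) with region and genotype as terms and a threshold of 0.05 after Benjamini-Hochberg adjustment. Since regions and genotypes stand in for replicates, p-values do not measure the spread between mice. Ratios of 2 libraries have no test, and a ratio was called 2-fold after a prior count of 2. Counts without molecular identifiers are not independent molecules. On simulated data, 100% of 194 changed genes were recovered for genotype and 100% of 195 for the infarct zone against the left ventricle, at 4-fold changes, with 8 false calls in each of 12656 and 12675 unchanged genes. Recovery of 4-fold changes at the spread of the measured libraries was not tested. CPM per kilobase used the longest principal transcript of the annotation.

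Named genes were the 10 members, *Tigar*, listed genes that were called or among the 3 largest changes of their list, and the 3 genes most like each member. Marker lists were summed over 9 cell types. Alternatives were scaling by total counts, DESeq2 size factors, without mitochondrial DNA–encoded genes, other filters and prior counts, the Wald test of DESeq2 1.42.0 and leaving out libraries. Python 3.11.15 with scipy 1.17.1, numpy 2.4.6, pandas 2.3.3 and matplotlib 3.10.9 served for tables and figures.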

Additional observations from a re-analysis of the deposited data

Results flagged for a closer look

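In 4 comparisons a gene went opposite ways against the left ventricle in the 2 genotypes with both counting-error intervals clear of 1. Each had 1 library per group, and the difference was not tested. *Mmp3* in the remote zone was 1.71 times the left ventricle in WT and 0.671 times in TKO, and *Mmp14* was 1.31 and 0.735 times. *Timp4* was 0.679 times the left ventricle in the WT border zone and 1.79 times in the TKO border zone, and 0.779 and 1.92 times in the remote zones. Further genes lay on opposite sides of 1, but with 1 of the 2 intervals holding 1. These were *Mmp12* (5.72 in WT, 0.911 in TKO) and *Mmp9* (1.35 and 0.462) in the remote zone, and *Mmp14* (2.17 and 0.889) in the border zone. The ratios of a genotype share its left ventricle library, and the level of *Timp4* there was 63.9 CPM in WT and 22.7 CPM in TKO.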

How the results depend on the processing

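No paired analysis was possible because each group held 1 library, so no replicate numbers could pair libraries, and the fit for genotype already compared TKO with WT within each region. For genotype, edgeR called 18 genes, against 56 with total counts, 342 with DESeq2 and 3 to 80 when the libraries of a region were left out (80 without the left ventricle), and 0 members, against 4 with DESeq2 and 0 to 2 without a region. For the border zone, 93 genes became 200 with total counts, 576 with DESeq2 and 2 to 388 without a library, and 1 member became 2, 6 and 0 to 5. For the remote zone, 0 genes became 18 with total counts, 3 under either other filter, 162 with DESeq2 and 0 to 65 without a library, and 0 members became 1 with DESeq2. For the infarct zone against the left ventricle 7385 genes were called, 4716 to 7243 without a library, and 9 to 10 members. Against the border zone 5656 were called, 410 to 4474 without a library, and 9 members became 0 to 6. With total counts, the members at least 2-fold different between genotypes in the infarct zone went from 1 to 3, and the genes called in the infarct zone against the left ventricle were 7869 higher and 1084 lower, against 3670 and 3715. Log2 differences that turned sign without a library, none of them called either way except where stated, are given as the range over the libraries left out. *Timp4* ranged from -0.59 to 0.12 for genotype, above 0 without the left ventricle. In the border zone *Timp4* ranged from -0.66 to 0.95, below 0 without the TKO left ventricle or TKO border library (-0.09), and *Mmp14* from -0.066 without the WT left ventricle to 1.03 without the TKO left ventricle, the latter called (adjusted p = 0.044). In the remote zone *Timp4* ranged from -0.51 to 1.10 and *Mmp14* from -0.58 to 0.52, both turning without the TKO left ventricle, *Mmp3* from -0.60 to 0.79, turning without the WT left ventricle or the WT remote library (-0.07), *Mmp9* from -0.84 to 0.21, turning without the TKO left ventricle or the TKO remote library (0.17), and *Mmp12* from -0.15 without the WT remote library to 2.53. The cause was not tested. With the union of exons as length, a choice made after seeing the data, the protease over inhibitor ratio per kilobase lay between 0.283 and 0.673, against 0.25 and 0.615. Each group held a single library, and depth is lowest for *Mmp19* in the TKO left ventricle (18 counts) and *Mmp9* in the TKO remote zone (22 counts).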

Other observations

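*Adam9*, a disintegrin metalloproteinase outside the MMP family, had 0 counts in the left ventricle, border and remote zone of WT and in the infarct zone of TKO, but 171, 235 and 43 counts in the left ventricle, border and remote zone of TKO and 42 in the infarct zone of WT. Its fitted genotype difference was 4.26 ± 2.29 on the log2 scale and was not called by edgeR (adjusted p = 0.39). Among metalloproteinases below the filter, *Mmp8*, the neutrophil collagenase, had 83 (WT) and 45 (TKO) counts in the infarct zone and 0 to 6 in the other libraries except the border zone of WT, with 25.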
